A study of Mus musculus with 10 samples.

Results

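Stat2 and the interferon-stimulated genes were followed through RNA sequencing of Neuro2a cells, a mouse neuroblastoma line. The set holds 38 genes named by symbol, out of 55401 gene identifiers in the count files, and each of the 38 matched 1 identifier of the GENCODE M21 annotation of GRCm38. They cover the signalling genes Stat2, Irf9 and Irf7, 3 nucleic acid sensors, the Ifit family (4 genes), the OAS family (6), Isg15 with its protease Usp18, 14 other effectors and 6 genes of antigen presentation. All libraries came from wild-type Neuro2a cells transfected with plasmids (0.5 µg, Lipofectamine) and collected after 72 h. The group dCas9-SCN9A (3 libraries) carried a Cas9 without cutting activity directed at the sodium channel gene SCN9A, and dCas9-empty (3 libraries) was its control. The group ZF-SCN9A (2 libraries) carried an engineered zinc-finger protein directed at the same gene, and mCherry (2 libraries), a red fluorescent protein, was taken as its control because no other group of that arm lacks a repressor. What dCas9-empty lacks, where either repressor binds and what share of cells took up plasmid is not stated in any source used here. Nothing in the labels tells whether the replicates were separate cultures. The p-values then measure only how these samples spread, and that spread may be technical.

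Gene counts summed to 17.8 to 19.0 M reads (M for 1e6) per dCas9-empty library, 15.4 to 16.4 M per dCas9-SCN9A library, 6.59 and 7.48 M in mCherry and 6.30 and 4.41 M in ZF-SCN9A. The zinc-finger arm was thus shallower and had fewer libraries, and low genes are less precise there. Plasmid reads followed the labels in kind, but their amounts differed between the dCas9 groups. Reads of the entry dCCas9 were 7326 to 8764 per M gene counts in dCas9-empty and 11202 to 12986 in dCas9-SCN9A. Those of dNCas9 were 4561 to 4949 and 3447 to 4054. The target Scn9a fell in both arms, with log2 fold changes of -1.38 ± 0.07 (SE) for dCas9 and -1.76 ± 0.14 for the zinc finger. The 10 sympathoadrenal and neuronal markers of this line summed to 2738 to 2964 CPM in the dCas9 arm and to 2301 to 2431 CPM in the zinc-finger arm, where CPM is counts per M gene counts after TMM scaling. The 10 leukocyte and microglia markers summed to 0.889 to 2.89 CPM, and 9 of them stood under 1 CPM in each group. In such bulk samples, fewer cells of a type and less RNA per cell cannot be told apart.

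Type I interferons bind a receptor of the subunits IFNAR1 and IFNAR2, which activates the kinases JAK1 and TYK2 and, through them, STAT2. STAT2 and IRF9 are parts of the complex ISGF3, which binds the interferon-stimulated response element (ISRE) in promoters and switches on antiviral effectors. Part of the same gene set is also held at a basal level in unstimulated cells. Several members, among them Stat2, Irf9 and Irf7, are themselves interferon targets, so the pathway feeds back on its own components.

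The core of the ISRE was searched in the 250 bases before the start of each gene, taken from RefSeq promoters (GRCm38.p6). The core searched was GAAA and GAAA with any 2 bases between them, or TTTC and TTTC so spaced on the other strand. It was present in 11 of the 28 members with a promoter in that table (39.3%), against 3.46% of all 27025 promoters. The GAS core TTCNNNGAA, the element of STAT dimers, was present in 5 of the 28 (17.9%), against 8.13% of all promoters. Both matches describe letters in this window and not binding. The windows below are those of Stat2, which fell with the zinc finger, Rsad2, which rose with it, Isg15 and Gbp3, which were lower in dCas9-empty than in mCherry, and B2m, an antigen presentation gene with the element. They are written 5′ to 3′ on the strand of the gene, with the matches in capitals.
Stat2, chr10:128270264-128270297, plus strand: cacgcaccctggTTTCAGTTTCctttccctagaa
Rsad2, chr12:26456551-26456584, minus strand: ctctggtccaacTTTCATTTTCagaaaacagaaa
Isg15, chr4:156200863-156200908, minus strand: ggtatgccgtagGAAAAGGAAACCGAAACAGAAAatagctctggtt
Gbp3, chr3:142559987-142560026, plus strand: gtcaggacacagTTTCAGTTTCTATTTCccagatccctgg
B2m, chr2:122147536-122147569, plus strand: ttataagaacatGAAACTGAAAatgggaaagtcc
The match begins 222 bases before the start in Stat2, 120 in Rsad2, 78 in Isg15, 45 in Gbp3 and 139 in B2m. Isg15 holds 3 overlapping matches and Gbp3 holds 2. The windows of Irf9, Irf7, Trim25 and H2-K1 held no such letters.

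Per length of exon, the class I genes B2m, H2-K1 and H2-D1 led the set in every group together with Ifi27. In the mCherry libraries, B2m, the light chain of MHC class I, stood at 207 ± 3.20 CPM per kb (SD, n = 2) and Ifi27, an interferon-induced mitochondrial protein, at 206 ± 6.54. These 2 did not differ beyond their spread. The class I heavy chains H2-K1 and H2-D1 followed at 168 ± 8.14 and 135 ± 10.3 CPM per kb. The antiviral membrane protein Bst2 (49.6 ± 7.03) and the ubiquitin-like protein Isg15 (47.4 ± 7.83) overlapped, and the ubiquitin ligase Trim25 (24.8 ± 0.816) and Stat2 (16.0 ± 0.863) came next. In dCas9-empty the first 3 places were held by B2m (243 ± 11 CPM per kb, SD, n = 3), H2-K1 (196 ± 15.1) and H2-D1 (167 ± 12.2), with Ifi27 at 102 ± 28.6. At the other end, Zbp1, a sensor of Z-form nucleic acids, had 4 reads in all 10 libraries, Ifit3b had 7, Ifi44 16 and Ifit3 19. These 4 fell under the filter on low counts in every comparison, and Oas2 (58 reads) and Oas3 (67 reads) fell under it in both comparisons of a repressor with its control. Reads of near-identical copies, such as Ifit3 and Ifit3b, Oas1a and Oas1b, or H2-K1 and H2-D1, may have been split or dropped by the counting, so the levels of these genes are uncertain.

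**Figure D1:**
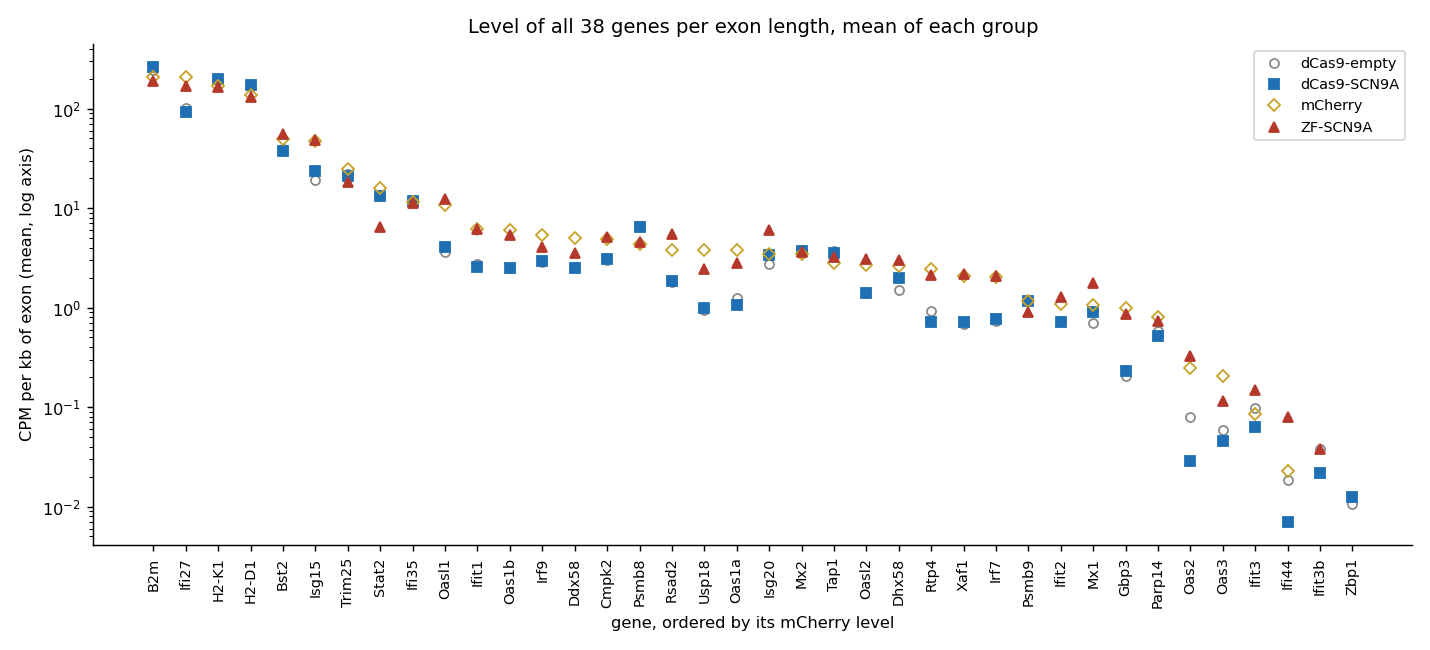
Mean level of each of the 38 genes in the 4 groups, in CPM per kb of exon on a log axis (groups with a mean of 0 are not drawn). B2m, Ifi27, H2-K1 and H2-D1 stand highest, and Zbp1, Ifit3b, Ifi44 and Ifit3 lowest.

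The first comparison asked which members changed when the zinc-finger repressor was present. Stat2, the transcription factor that names the set, fell to 40.3% of its control level, the largest change of any member tested. Among the other 31 members tested, Trim25, Ddx58 and Ifi27 were lower and Rsad2 and Isg20 higher, each by less than Stat2. Irf9, the partner of STAT2, and the classical targets Isg15, Ifit1 and the 4 OAS genes that could be tested did not pass.

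Stat2 (ENSMUSG00000040033) lies on the plus strand of chromosome 10, from 128270559 to 128292849 in GRCm38, with 5926 bases of exon. It had 616 and 757 reads in the mCherry libraries and 255 and 170 in the ZF-SCN9A libraries. On the CPM scale these were 91.0 and 98.2 against 38.8 and 37.0. The groups did not overlap, and both ZF-SCN9A libraries lay under every other library of the study. The mean level fell from 94.6 ± 5.11 to 37.9 ± 1.26 CPM (SD, n = 2 each). The log2 fold change was -1.31 ± 0.10 (SE, 95% interval -1.51 to -1.11), and edgeR's quasi-likelihood test gave an adjusted p = 3.05e-33 (Benjamini-Hochberg over all genes tested). The 95% interval of the remaining level ran from 35.0% to 46.4% of control. Stat2 ranked 10 by p among 12899 genes tested, and 23 of the 358 genes called lower had a log2 fold change at or below its own, Stat2 included. Permuting its log2 CPM over the libraries (exact, two-sided) gave p = 0.333, the smallest value that 6 permutations of 2 against 2 allow. DESeq2 gave an adjusted p = 1.34e-16, and the call held in each of the 14 alternatives, with log2 fold changes from -1.36 to -1.20.

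The genes around Stat2 were looked at for a change over the whole locus. Within 100 kb of the gene lay 21 others, of which 12 could be tested, and none was called in either arm. Of all genes tested, 4.72% were called with the zinc finger and 0.041% with dCas9. None of 12 is near these shares, so whether the locus changed as a whole cannot be read from it. The log2 fold changes of the 12 with the zinc finger ran from -0.53 to 0.29, and the lowest adjusted p was 0.103 (edgeR). The lower end of that range was Gm17201, an antisense transcript.

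Of the 32 members tested in the zinc-finger arm, 6 were called at an adjusted p under 0.05, 4 lower and 2 higher. Of all genes tested in that comparison 4.72% were called, 2.78% lower and 1.95% higher. The median log2 fold change of the 32 was 0.0037, and that of all genes tested was 0.0017. As many members lay above 0 (16) as below it (16), and 50.4% of all genes lay above 0. The libraries of the groups did not overlap for 13 of the 32, against 45.7% of all genes. DESeq2 called 2 members (Stat2 and Trim25) and 1.2% of the genes it gave an adjusted p, and limma-voom called 6 members and 4.78% of all genes.

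Trim25, the ubiquitin ligase that activates the RNA sensor RIG-I, stood at 140 and 146 CPM in the mCherry libraries and fell to 103 and 108 CPM in ZF-SCN9A. Every ZF-SCN9A value was below every mCherry value, and also below all 6 values of the dCas9 arm (114 to 134 CPM). Its log2 fold change was -0.43 ± 0.08 (SE, adjusted p = 1.02e-05 by edgeR), and it stayed called in all 14 alternatives, with adjusted p-values up to 0.0277. Ddx58, which encodes RIG-I itself, fell from 37.5 and 32.3 CPM to 24.5 and 25.0 CPM. The log2 fold change was -0.49 ± 0.14 (SE, adjusted p = 0.0163). This call was lost without mCherry replicate 1 (-0.38, adjusted p = 0.302), when ZF-SCN9A replicate 1 was left out (-0.47, 0.246) and when replicate 2 of that group was (-0.50, 0.119).

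Ifi27 fell from 296 and 309 CPM in mCherry to 263 and 230 CPM in ZF-SCN9A, without overlap. The log2 fold change of -0.28 ± 0.07 (SE, adjusted p = 0.0012 by edgeR) was lost without ZF-SCN9A replicate 2 (-0.19, adjusted p = 0.398). Rsad2, which encodes viperin, an enzyme that makes a chain-terminating nucleotide, rose from 16.8 and 16.0 CPM to 27.7 and 20.2 CPM. The log2 fold change was 0.58 ± 0.16 (SE, adjusted p = 0.0135), and the ZF-SCN9A libraries differed more from each other than the mCherry libraries did. Without ZF-SCN9A replicate 1 it was 0.31 (adjusted p = 0.673), and it also missed the threshold without either mCherry library (adjusted p = 0.0586 and 0.0687). Isg20, an exonuclease that degrades single-stranded RNA, rose from 5.32 and 7.52 CPM to 10.5 and 11.97 CPM, a change of 0.79 ± 0.24 on the log2 scale (SE, adjusted p = 0.0319). Its call was lost without mCherry replicate 1 (0.57, adjusted p = 0.408), ZF-SCN9A replicate 1 (0.89, 0.152) or ZF-SCN9A replicate 2 (0.70, 0.301). DESeq2 gave none of Ddx58, Ifi27, Rsad2 and Isg20 an adjusted p under 0.05 (0.385, 0.127, 0.482 and 0.517).

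**Figure D2:**
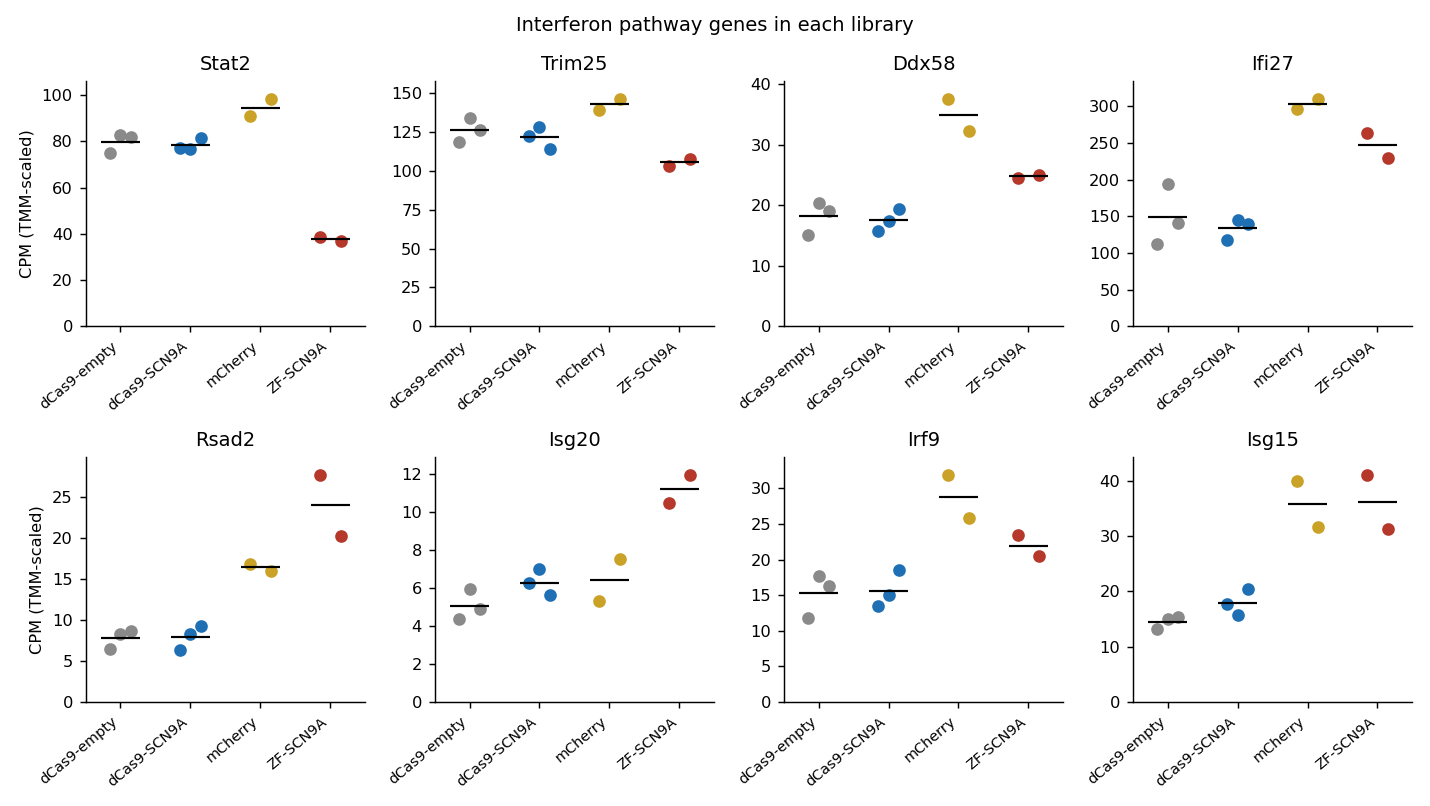
CPM in each of the 10 libraries for Stat2, Trim25, Ddx58, Ifi27, Rsad2, Isg20, Irf9 and Isg15, with dots for libraries and bars for group means. The ZF-SCN9A libraries of Stat2 (38.8 and 37.0 CPM) lie apart from all others, while Irf9 and Isg15 are lower in the 6 dCas9 libraries than in the 4 libraries of the zinc-finger arm.

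The remaining signalling genes and direct targets did not pass in the zinc-finger arm. Irf9, the DNA-binding partner in ISGF3, had 31.9 and 25.8 CPM in mCherry and 23.4 and 20.5 CPM in ZF-SCN9A. The groups did not overlap, but the log2 fold change of -0.37 ± 0.15 (SE) had an adjusted p = 0.139 by edgeR. Irf7, the factor that amplifies interferon transcription, had a log2 fold change of 0.03 with an interval of -0.47 to 0.53. Isg15 had 40.02 and 31.6 CPM in mCherry and 41.0 and 31.3 CPM in ZF-SCN9A, overlapping, and its interval ran from -0.20 to 0.30 on the log2 scale. Usp18, the protease that removes ISG15 and dampens the receptor, was at 10.3 and 10.8 CPM against 8.21 and 5.44 (log2 fold change -0.58 ± 0.24, adjusted p = 0.163).

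Among the effectors, Ifit1, which binds foreign RNA caps, had an interval of -0.32 to 0.38 around 0.03 on the log2 scale. The OAS genes tested make or relate to the activator of RNase L, and their 4 log2 fold changes ran from -0.38 (Oas1a) to 0.25 (Oasl2), with none called. Mx1, a dynamin-like GTPase, had 2.81 and 5.19 CPM in mCherry and 6.69 and 6.74 in ZF-SCN9A (log2 fold change 0.73 ± 0.32, adjusted p = 0.186). The abundant class I genes H2-K1, H2-D1 and B2m had narrow intervals. Their log2 fold changes were -0.04 (interval -0.16 to 0.08), -0.05 (-0.17 to 0.08) and -0.11 (-0.25 to 0.04), and none of the 6 antigen presentation genes was called. Of the 8 tested members with an ISRE core before their start, Stat2 was called lower, Rsad2 higher and the other 6 neither, where 4.72% of all genes were called.

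The second comparison asked the same of the dCas9 repressor. None of the 32 members tested was called, in a comparison that called 0.041% of all genes by edgeR. DESeq2 and limma-voom called 0 members as well (0.191% and 0.0273% of all genes), and 2 members had an unadjusted p under 0.05 against 10.1% of all genes. The median log2 fold change was 0.0055 over the members and 0.0054 over all genes, with 17 members above 0 and 15 below (51.7% of all genes were above 0).

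Stat2 stood at 74.9, 82.7 and 81.7 CPM in dCas9-empty and at 77.2, 76.8 and 81.2 CPM in dCas9-SCN9A, and the groups overlapped. The means were 79.8 ± 4.28 and 78.4 ± 2.45 CPM (SD, n = 3 each). The log2 fold change was -0.02 ± 0.06 (SE, adjusted p = 0.929 by edgeR), with a 95% interval of -0.15 to 0.10, or 90.3% to 107% of control. The exact two-sided permutation p was 0.8, where the smallest value for 3 against 3 is 0.1. A decrease of the size seen with the zinc finger lies outside this interval.

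The 2 members with an unadjusted p under 0.05 were Isg15 and Dhx58. Isg15 had 13.3, 15.0 and 15.4 CPM in dCas9-empty and 17.8, 15.8 and 20.4 CPM in dCas9-SCN9A, the only 1 of the 32 tested members whose groups did not overlap, against 15.7% of all genes. The log2 fold change was 0.31 ± 0.11 (SE, adjusted p = 0.346). Dhx58, which encodes LGP2, a regulator of RNA sensing, had 3.91, 5.10 and 5.68 CPM against 4.81, 7.56 and 7.20 CPM, overlapping (0.41 ± 0.19, adjusted p = 0.477). The remaining members ran from -0.39 (Rtp4, a chaperone-like protein) to 0.38 (Mx1) on the log2 scale. Trim25, Ddx58, Ifi27, Rsad2 and Isg20, called with the zinc finger, had log2 fold changes of -0.05, -0.06, -0.16, 0.03 and 0.31 with dCas9, none called. For Irf9 the value was 0.03 (interval -0.30 to 0.37), and for H2-K1 and H2-D1 it was 0.01 and 0.03.

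**Figure D3:**
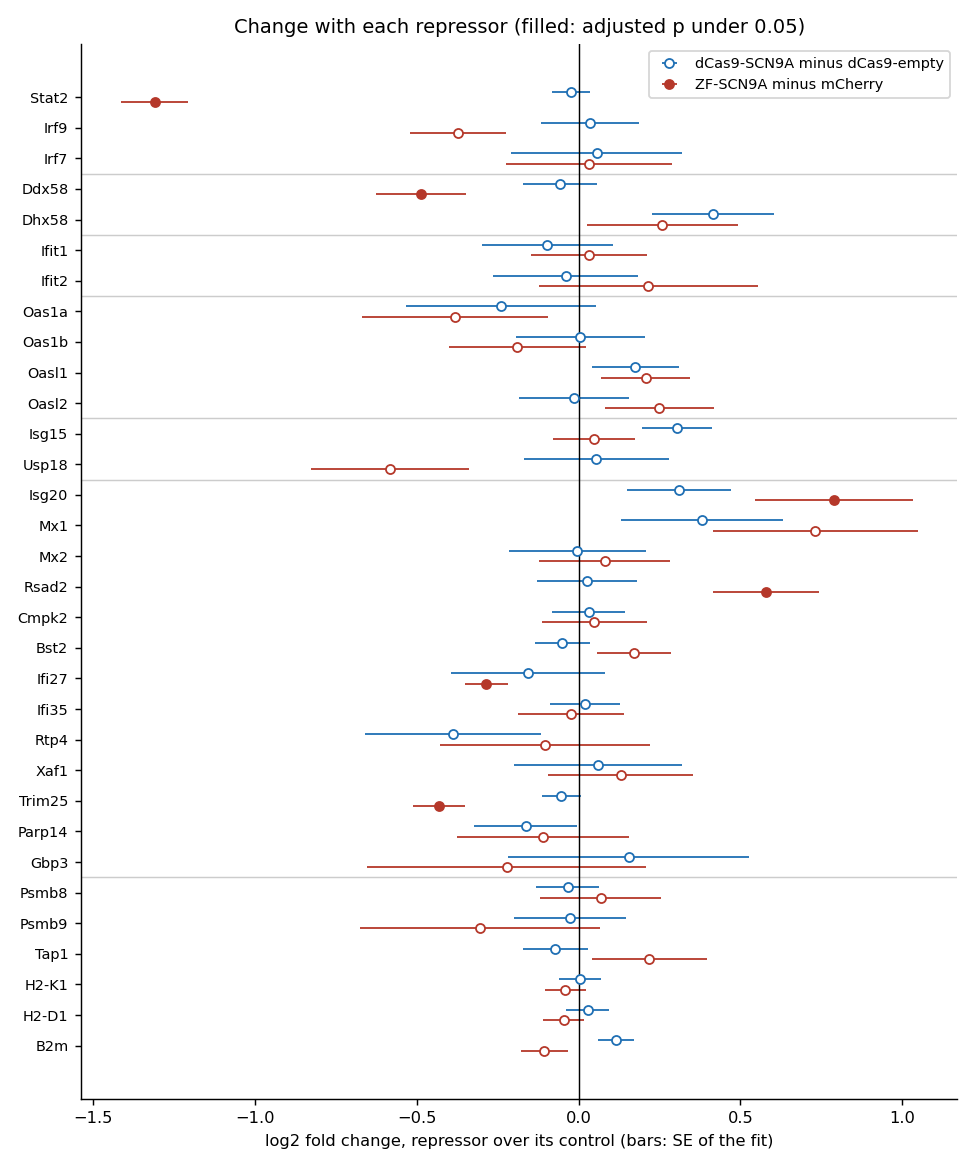
Log2 fold change of the 32 tested members with dCas9-SCN9A against dCas9-empty and with ZF-SCN9A against mCherry, with SE as bars and filled points for an adjusted p under 0.05. Stat2 is at -1.31 with the zinc finger and at -0.02 with dCas9, and no dCas9 point is filled.

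Whether the repressors differed was tested directly, as the change with dCas9 minus the change with the zinc finger over all 10 libraries. Stat2 was the only member called of 34 tested, where 0.907% of all genes were called. The difference was 1.29 ± 0.11 on the log2 scale (SE, 95% interval 1.06 to 1.52, adjusted p = 3.86e-09 by edgeR), and its sign comes from the decrease with the zinc finger (-1.31) beside -0.02 with dCas9. Over the alternatives it ran from 1.24 to 1.34, with adjusted p-values up to 1.41e-06. For Trim25 the difference was 0.38 ± 0.10 (SE, adjusted p = 0.0556). For Ddx58 it was 0.44 ± 0.18 (adjusted p = 0.355) and for Rsad2 -0.54 ± 0.24 (adjusted p = 0.376). A difference between the repressors was therefore not shown for these 3, nor for Isg20 (-0.48, adjusted p = 0.57) or Ifi27 (0.14, adjusted p = 0.934).

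More members differed between the control groups than between either repressor and its control. Of the 28 members tested outside antigen presentation, 20 were called lower in dCas9-empty than in mCherry and none higher. Of the 6 antigen presentation genes, 5 were called higher, all of them lost without mCherry replicate 1. Plasmid, depth, number of libraries and any batch of the arms cannot be told apart here, so the values describe the arms and not an effect of either plasmid. Together 25 of 34 members tested were called, where 37.3% of all genes tested were called (20.2% higher and 17.2% lower). Among all genes the calls were 3065 higher and 2609 lower, and with plain library sizes 2199 higher and 3801 lower. Plain library sizes moved the median of all genes in this comparison to -0.09 on the log2 scale, from 0.0066 with TMM.

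Outside antigen presentation, 28 members were tested, and their median log2 difference (dCas9-empty minus mCherry) was -0.97. Gbp3, an interferon-induced GTPase, had the largest, with 0.632, 0.767 and 0.631 CPM in dCas9-empty and 3.99 and 2.46 CPM in mCherry. The log2 difference was -2.21 ± 0.41 (SE, adjusted p = 1.03e-04 by edgeR), and it rests on few reads. Usp18 stood at 2.24, 2.68 and 2.99 CPM against 10.3 and 10.8 CPM (-1.99 ± 0.22, adjusted p = 4.36e-08). No library of these groups overlapped in either gene.

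Isg15 stood at 13.3, 15.0 and 15.4 CPM in dCas9-empty and at 40.02 and 31.6 CPM in mCherry, a log2 difference of -1.28 ± 0.12 (SE, adjusted p = 2.15e-09). Oasl1, an OAS-like inhibitor of Irf7 translation, was at 8.57, 10.1 and 9.41 CPM against 30.3 and 25.8 CPM (-1.57 ± 0.13, adjusted p = 2.53e-10). Both genes differed by far more than the spread between libraries. Oas1a (-1.58), Oas1b (-1.28), Oas2 (-1.59), Oas3 (-1.77) and Oasl2 (-0.90) were lower as well. All 6 members of the OAS family were thus called by edgeR. DESeq2 called 5 of the 6 and not Oas2 (adjusted p = 0.117), which was also lost without a filter. Oas2 and Oas3 are near the filter, and without either mCherry library they missed the threshold (adjusted p = 0.14 and 0.211 for Oas2, 0.0881 and 0.0821 for Oas3), Oas2 also without dCas9-empty replicate 1 (0.0604).

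The signalling genes followed the same direction with unequal sizes. Irf7 stood at 1.67, 3.67 and 2.99 CPM in dCas9-empty and at 6.94 and 8.43 CPM in mCherry (log2 difference -1.46 ± 0.27, adjusted p = 1.76e-04 by edgeR). Irf9 stood at 11.8, 17.6 and 16.4 CPM against 31.9 and 25.8 CPM (-0.90 ± 0.16, adjusted p = 3.25e-04). Stat2 itself differed least of these 3, by -0.24 ± 0.07 (SE, adjusted p = 0.0104), and missed the threshold without mCherry replicate 2 (-0.18, adjusted p = 0.147). The exact two-sided permutation test of Stat2 between these groups gave p = 0.1, the lowest that 3 against 2 can reach.

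Among the sensors, Ddx58 (-0.93 ± 0.12) and Dhx58 (-0.79 ± 0.21) were lower in dCas9-empty. Of the other effectors, Xaf1 (-1.57), Rtp4 (-1.37), Rsad2 (-1.06), the nucleotide kinase Cmpk2 (-0.68), Bst2 (-0.34) and Trim25 (-0.17) were lower too. Rtp4 missed the threshold without mCherry replicate 1 (-1.02, adjusted p = 0.0522), Bst2 without mCherry replicate 2 (-0.19, 0.363) and Trim25 when any library but dCas9-empty replicate 2 was left out (0.0507 to 0.247). Trim25 was also lost with DESeq2 (adjusted p = 0.0935), with limma-voom (0.0525), without a filter and with the exon length correction. Trim25 and Bst2 were both lost in the strand column. Ifit1 (-1.14, adjusted p = 0.0526), Ifi27 (-1.01, 0.0806) and Ifit2 (-0.57, 0.0979) had differences in the same direction that did not pass. DESeq2 did call Ifit1 (adjusted p = 0.033) and Ifi27 (0.00465) but not Ifit2 (0.217). Ifit1 was also called in the strand column, with plain library sizes, without a filter, with a 1 CPM filter and with all 10 libraries in 1 fit. It was called as well without dCas9-empty replicate 1 or 2, but not with limma-voom (adjusted p = 0.061). Parp14, Mx1, Mx2, Isg20 and Ifi35 did not pass either, with log2 differences from -0.61 (Mx1) to 0.14 (Mx2).

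The antigen presentation genes lay on the other side of 0. Psmb8, a subunit of the immunoproteasome, stood at 21.0, 25.9 and 19.98 CPM in dCas9-empty and at 13.7 and 15.7 CPM in mCherry (log2 difference 0.61 ± 0.14, SE, adjusted p = 0.00102 by edgeR). Tap1, a subunit of the peptide transporter, differed by 0.40 ± 0.14 (adjusted p = 0.0227), H2-D1 by 0.31 ± 0.06 (4.24e-04), B2m by 0.24 ± 0.06 (0.00271) and H2-K1 by 0.23 ± 0.06 (0.00546). Psmb9, whose exons overlap those of Tap1 on the other strand over 212 bases, did not pass (0.02, adjusted p = 0.951). All 5 calls were lost without mCherry replicate 1 (log2 differences 0.51, 0.28, 0.23, 0.21 and 0.16 in the same order, adjusted p from 0.0558 to 0.257). Without dCas9-empty replicate 2, Tap1 (0.29, adjusted p = 0.136) and H2-K1 (0.16, 0.0713) were lost, and Tap1 was lost without mCherry replicate 2 (0.52, 0.0516). With plain library sizes 2 of the 5 remained called, and a correction for exon length put B2m at -0.02 (adjusted p = 0.814). Tap1 was also lost with DESeq2 (adjusted p = 0.0794) and in the strand column.

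**Figure D4:**
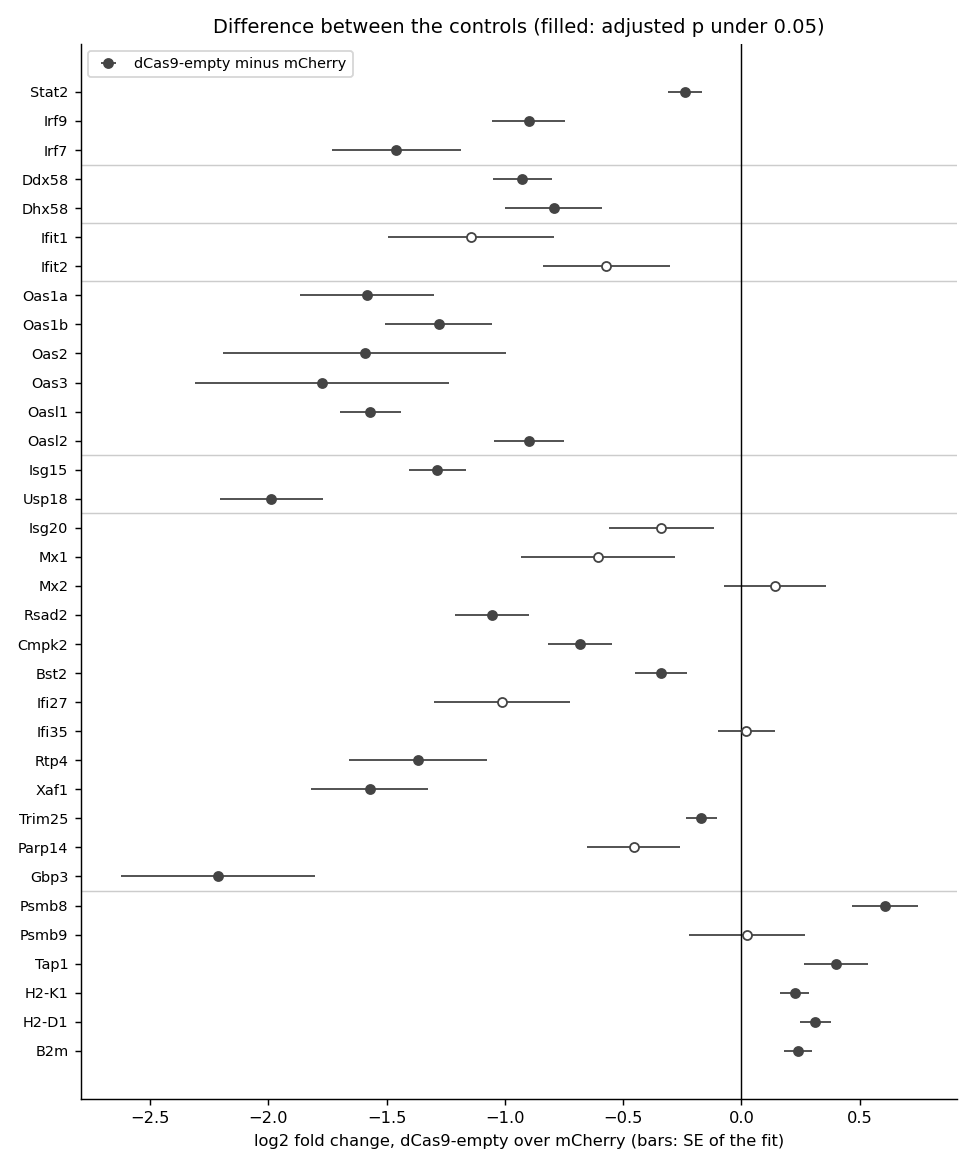
Log2 difference of the 34 tested members between the control groups, dCas9-empty minus mCherry, with SE as bars and filled points for an adjusted p under 0.05. All filled points right of 0 are antigen presentation genes, from 0.23 (H2-K1) to 0.61 (Psmb8), and all filled points left of 0 lie outside that group, down to -2.21 (Gbp3).

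Within the dCas9 arm the antiviral members also ranked alike across libraries. The 28 members outside antigen presentation that were tested over all 10 libraries include Oas2 and Oas3, which fell under the filter with dCas9. Of these 28, dCas9-empty replicate 1 had the lowest CPM of its group in 22 (78.6%), while over all genes it was lowest in 34.3%. Replicate 2 was the highest in 19 of the 28 (67.9%, against 31.5% of all genes) and in all 6 antigen presentation genes. In dCas9-SCN9A, replicate 1 was lowest in 17 of 28 (60.7%, against 32.2% of all genes). Ifi27, for example, had 112, 195 and 141 CPM over the 3 dCas9-empty libraries, and Oas1a had 1.32, 3.07 and 2.64 CPM. In ZF-SCN9A, with 2 libraries, replicate 2 was the lower in 18 of these 28 members (64.3%, against 49.2% of all genes). In mCherry, also with 2, replicate 1 was the lower in 15 (53.6%, against 49.6% of all genes). Among the 6 antigen presentation genes, mCherry replicate 1 was the lower in 5.

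Of 68 further genes of the pathway, 51 were tested with dCas9 and none was called, where 0.041% of all genes were. With the zinc finger 52 were tested and 3 called, where 4.72% of all genes were, a share near that of the list. The 10 interferon genes looked for had 4 reads in all, at most 1 in a library, among 126.6 M gene counts. Over that total 3 counts stand for 0.0237 CPM. The reads fell on 4 of the 10 genes, so none of the genes reached 3 counts. In a single library the floor is higher, above all in the shallower zinc-finger arm, and low levels there would be missed. The receptor subunits were present in every library, Ifnar1 at 60.2 to 71.5 CPM and Ifnar2 at 18.2 to 24.6 CPM. Neither was called in any comparison of groups. None of the 13 genes of the receptor and its upstream signalling was called with either repressor by edgeR.

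The 3 pathway genes called with the zinc finger were Ifngr1, Tmem173 and Dtx3l. Ifngr1, a receptor subunit for interferon gamma, rose from 11.96 and 12.6 CPM in mCherry to 19.9 and 18.9 CPM in ZF-SCN9A (log2 fold change 0.67 ± 0.18, SE, adjusted p = 0.0102 by edgeR). Tmem173, which encodes the DNA-sensing adaptor STING, fell from 19.6 and 17.4 CPM to 12.6 and 11.7 CPM (-0.59 ± 0.19, adjusted p = 0.041). Dtx3l, a ubiquitin ligase that pairs with a PARP protein, fell from 26.0 and 24.0 CPM to 15.8 and 19.8 CPM (-0.50 ± 0.16, adjusted p = 0.0435). Each of these calls was lost when mCherry replicate 1 or either ZF-SCN9A library was left out (adjusted p from 0.0635 to 0.608), and that of Dtx3l also without mCherry replicate 2 (0.0505). All 3 were lost with DESeq2 (adjusted p = 0.33, 0.55 and 0.599 for Ifngr1, Tmem173 and Dtx3l) and in the strand column (edgeR adjusted p = 0.316, 0.326 and 0.748).

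Between the control groups, 26 of 54 pathway genes tested were called, 11 higher and 15 lower in dCas9-empty, where 20.2% of all genes were called higher and 17.2% lower. The RNA-sensing kinase Eif2ak2 (PKR) stood at 34.5 ± 3.84 CPM in dCas9-empty and 60.9 ± 0.965 in mCherry (SD, n = 3 and 2), a log2 difference of -0.81 ± 0.09 (SE, adjusted p = 1.29e-07 by edgeR). Adar, which edits double-stranded RNA (-0.59), and the galectin Lgals9 (-1.24) were lower as well. Irf2, a factor that competes at the ISRE, was higher (0.76 ± 0.08, adjusted p = 5.80e-08), at 62.9 ± 0.0339 CPM against 37.4 ± 0.590. Of 12 further antigen presentation genes tested, 5 were called and all 5 were higher, among them Pdia3, a chaperone of class I loading (0.32 ± 0.06, adjusted p = 7.77e-05), while of 15 further interferon-stimulated genes 8 were lower and 2 higher. The endothelial markers summed to 83.1 to 100 CPM in dCas9-empty and 48.6 to 53.6 CPM in mCherry, and the fibroblast markers to 21.6 to 26.2 and 27.4 to 33.2 CPM. The endothelial sum does not describe every marker of that list, and 2 of its 5 markers stood under 1 CPM in dCas9-empty. Among the 3 endothelial markers tested, 2 were called higher in dCas9-empty and 1 was lower without a call. Of 9 sympathoadrenal and neuronal markers tested, 5 were called between the control groups (4 higher and 1 lower in dCas9-empty) and 4 with the zinc finger (1 higher and 3 lower). Of all genes tested, 37.3% were called between the control groups and 4.72% with the zinc finger. DESeq2 called 1 of the 9 markers with the zinc finger, where it called 1.2% of all genes. The part of these markers in the members' differences was not tested.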

How the data were processed

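Per the labels, RNA of transfected Neuro2a cells was sequenced on an Illumina instrument. Each deposited file holds the raw reads counted for every gene (count values), in 1 unstranded and 2 stranded columns as STAR writes them, with no normalization by the authors. The tools named are bcl2fastq 2.20, STAR 2.7.3a and DESeq2, with the build GRCm38, per the submitters' processing notes. No source used here states the annotation release or how counting was set. The unstranded column was used, so reads of genes that overlap on opposite strands cannot be told apart. The 4 entries that name no gene (25.0% to 28.2% of listed reads) and 4 plasmid entries entered neither library sizes nor tests.

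Each comparison was fitted alone by quasi-likelihood in edgeR 4.0.16 (with limma 3.58.1 in R 4.3.3; TMM, filterByExpr with a minimum count of 10, robust fitting, two-sided, Benjamini-Hochberg adjustment over all genes tested). A gene is called where its adjusted p is under 0.05, and unnamed adjusted p-values are edgeR's. The difference between the repressors was a contrast over all 10 libraries. Residual degrees of freedom were 4 for dCas9, 2 for the zinc finger, 3 for the controls and 6 for the difference. In the zinc-finger fit 88.0% of genes had an infinite prior, so their p-values rest on spread shared across genes. CPM values use TMM over all 10 libraries and exon lengths of GENCODE M21. The scripts were tested on simulated data. All replicate pairs differed beyond sampling noise in a chi-square test. Alternatives were DESeq2 size factors in edgeR, plain library size, DESeq2 1.42.0, limma-voom, no filter and a 1 CPM filter. Further ones were a strand column, an exon length correction, all 10 libraries in 1 fit, a replicate block and leaving out each library. For the difference only DESeq2 size factors in edgeR, limma-voom, the replicate block and leaving out each library were run.

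The members and the lists were chosen with earlier results of these data known. Named are Stat2, each member with an adjusted p under 0.05 in any comparison, and further members by role with their values. Pathway genes outside the members are named where called, and otherwise as examples of their list.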

Additional observations from a re-analysis of the deposited data

Results flagged for a closer look

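The change of Stat2 with dCas9 minus its change with the zinc finger was 1.29 ± 0.11 on the log2 scale (SE, edgeR adjusted p = 3.86e-09). It is singled out because the same contrast, a repressor directed at SCN9A against its control, gave different changes in the 2 arms by a test of that difference. Both ZF-SCN9A libraries were lower than both mCherry libraries, while the dCas9-SCN9A libraries lay within the range of dCas9-empty. The arms also differ in plasmid, depth and number of libraries, and these cannot be told apart from the kind of repressor.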

How the results depend on the processing

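No member was called with dCas9 under any alternative, and Stat2 and Trim25 stayed called lower with the zinc finger under all 14. Genes called with dCas9, 6 at first, came to 172 without a filter, 28 with DESeq2, 2 with an exon length correction, 29 with all 10 libraries in 1 fit, and 1 to 34 with a library left out. With the zinc finger, 609 became 128 with DESeq2, 275 in the strand column, 348 with all 10 libraries, and 201 to 787 with a library left out. Members higher (2) came to 1 without a filter and to 0 with DESeq2, in the strand column and with all 10 libraries (0 to 1 with a library left out), and members lower (4) to 2 under each of these last 3 (2 to 5). The median of the members tested (0.0037) ran from -0.18 to 0.038 with a library left out. Between the controls, 5674 genes ran from 3585 to 5705 with a library left out, members higher (5) from 0 to 5 and members lower (20) from 16 to 22. Plain library sizes left 2 members higher, and no filter gave a median of -0.61 in place of -0.85. For the difference, 143 genes ran from 71 to 241 and members higher (1) from 1 to 2. The sign changed for Stat2 with dCas9 in the strand column (0.027) and without dCas9-empty replicate 2 or 3 (range with a library left out -0.063 to 0.0080), and for B2m between the controls with the length correction (-0.023). The causes were not tested.

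Of 634 values of single genes under alternatives, 542 kept direction and call, 88 lost the call and 4 changed sign. Most of them, 479, came from the comparison of the controls. With the zinc finger 46 of 126 lost the call, and the 16 values with dCas9 are all of Stat2. Only Stat2 and named genes called at first were counted, so calls gained under an alternative do not appear in these numbers. Whether samples of the same number share more than that number is not stated, and the main fits took no account of it. Deviations of same-number samples correlated at 0.255, 0.197 and 0.0423 with dCas9, and those of unlike number at -0.259 to 0.107. With the zinc finger the values were 0.0684 and -0.0684. Groups of 2 libraries force these to be equal and opposite, so they give no separate comparison of like and unlike numbers. A replicate effect shared by the groups of the dCas9 arm may therefore be present. With the replicate block, 262 genes were called with dCas9, 570 with the zinc finger, 6317 between the controls and 429 for the difference. Called members stayed at 0 with dCas9 and at 4 lower and 2 higher with the zinc finger, and rose to 2 for the difference (Stat2 and Trim25). Depth limits low members most, and 6 of the 38 could not be tested in either arm.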
